A study of Mus musculus with 2 samples.

Results

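Levels of 9 genes of the calmodulin and calcineurin pathway were described in the left cerebral cortex of mice, in 2 samples labelled as separate males: Calm2 and Calm3, which encode calmodulin, Pcp4 and Gap43, which encode neuronal proteins that bind it, and Ppp3ca, Ppp3cb, Ppp3r1, Rcan1 and Rcan2, which encode subunits and inhibitors of the phosphatase calcineurin. The genes were chosen by name and found by symbol, and all 9 were present among the 55536 gene rows. Total RNA, depleted of ribosomal RNA, came from males of the hybrid strain B6CASTF1/J, a cross of C57BL/6J with CAST/EiJ, aged 2 months. No allele was altered and no agent was given according to the labels. Both libraries form 1 group, so the data hold no comparison between conditions, and replicate 1 and replicate 2 are described as they stand. The labels number the males separately but give both samples the same donor record, which is read here as a record of the strain. If it named 1 animal, the SD over n = 2 would be the spread between samples of that animal. Differences described below as between animals would then be differences between those samples. Reads were assigned to a reference of the C57BL/6J strain, and how mismatches of the CAST/EiJ alleles affected the assignment was not measured.

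Calmodulin is a small cytosolic protein that binds calcium through EF-hand motifs and then wraps around target proteins. One such target is calcineurin, a protein phosphatase built of a catalytic A subunit, with an autoinhibitory tail and a calmodulin-binding stretch, and a regulatory B subunit that binds calcium itself. In cortical neurons calcineurin acts on synaptic proteins and on transcription factors of the NFAT family, the Rcan proteins bind and restrain it, and small IQ-motif proteins compete for calmodulin.

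The libraries held 33007629 and 32142918 expected counts, and spike-in RNAs took 0.428% and 0.345% of them. The labelled tissue was checked against marker lists. The excitatory neuron gene Slc17a7 (588 and 586 TPM, an abundance per transcript length scaled to a fixed total, in replicates 1 and 2) was present in both libraries. All 69 listed marker genes of neurons, layers, glia, vessels, striatum and thalamus were at 1 TPM or more in both. Since striatal and thalamic markers passed as well, this rule cannot tell cortex from other brain tissue. The upper layer markers summed to 449 and 470 TPM. The striatal markers summed to 366 and 208 TPM, so the 2 libraries differed in these.

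All 9 genes were expressed in both libraries, between 25.2 TPM for Rcan1 and 1052 TPM for Calm2. The order of mean levels was Calm2, Calm3, Ppp3ca, Ppp3r1, Pcp4, Gap43, Ppp3cb, Rcan2 and Rcan1, and no neighbours in this order overlapped between the 2 libraries. In the other quantification, made directly from the reads rather than from an alignment, every gene read higher, by 1.43 to 2.23-fold with a median of 1.53-fold. Over the 8268 protein-coding genes at 10 TPM or more this factor had a median of 1.56, so only the order and the ratios are comparable between the 2 quantifications. There Pcp4 (513 and 410 TPM) overlapped Ppp3r1 (472 and 458 TPM), and the remaining order was the same. In rank among 22028 protein-coding genes, Calm2 stood 20th, Calm3 34th, Ppp3ca 93rd and Ppp3r1 141st, while Rcan1 stood 4444th.

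**Figure D1:**
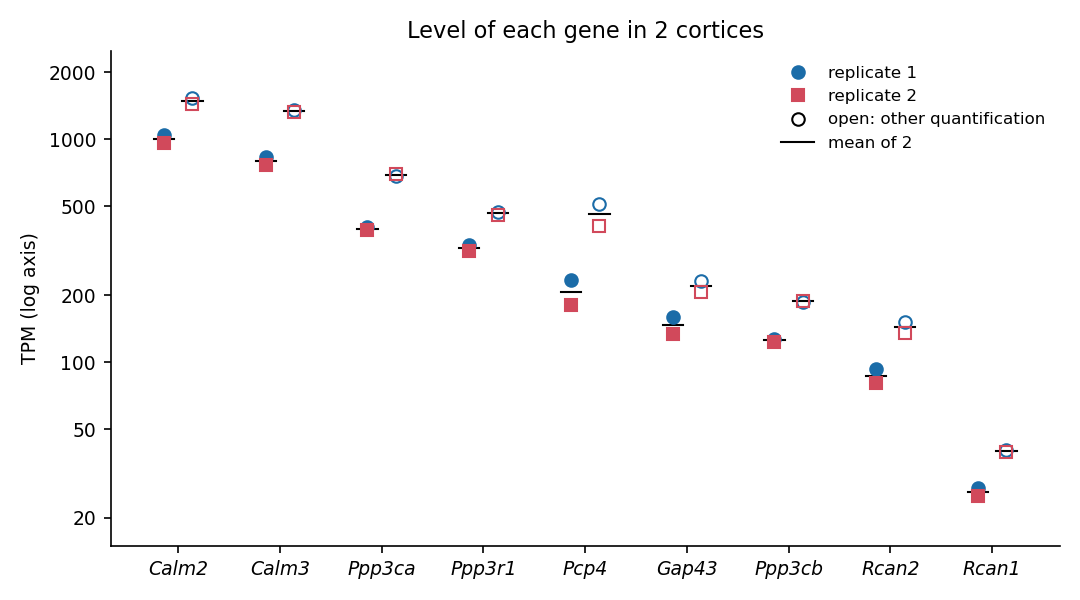
Level of each of the 9 genes in TPM on a log axis, with circles for replicate 1, squares for replicate 2 and a line at their mean; filled symbols show the first quantification and open symbols the other. The genes run from Calm2 at 966 to 1052 TPM down to Rcan1 at 25.2 to 27.2 TPM, and the symbols of Pcp4, Gap43 and Rcan2 lie farther apart than those of Ppp3ca and Ppp3cb.

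Differences between the 2 libraries were small, and relative to all genes they pointed one way. On counts scaled by edgeR's TMM method, 8 of the 9 genes were lower in replicate 2 beyond counting error, 0 were higher and Ppp3cb lay within it, but with spike-in scaling 0 were lower and 8 were higher, and all 9 then lay below the median of all genes. On TMM-scaled counts 22.6% of the 18490 genes tested were called by the same rule, 11.6% lower and 11.0% higher. The shares of all genes called with spike-in scaling were not computed. Since the rule calls small differences at high counts, the 5754 genes with 1000 counts or more on average are the closer background, and of these 23.0% were lower and 38.2% were called in either direction. None of the 9 differed 2-fold, against 1.80% of all genes tested. The 9 log2 ratios of replicate 2 over replicate 1 ran from -0.36 for Pcp4 to -0.04 for Ppp3cb with a median of -0.12, beside 0.0003 for all genes tested and -0.02 for those with 1000 counts or more. Among the latter the log2 ratios had an SD of 0.11, and 7 of the 9 genes lay below their 25th percentile (-0.07). With spike-in scaling the median of all genes was 0.32, and the 9 genes lay between 0.03 and 0.36 under that median. Each side of these differences is a single library, so they have no replicate check, and intervals cover counting error only.

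**Figure D2:**
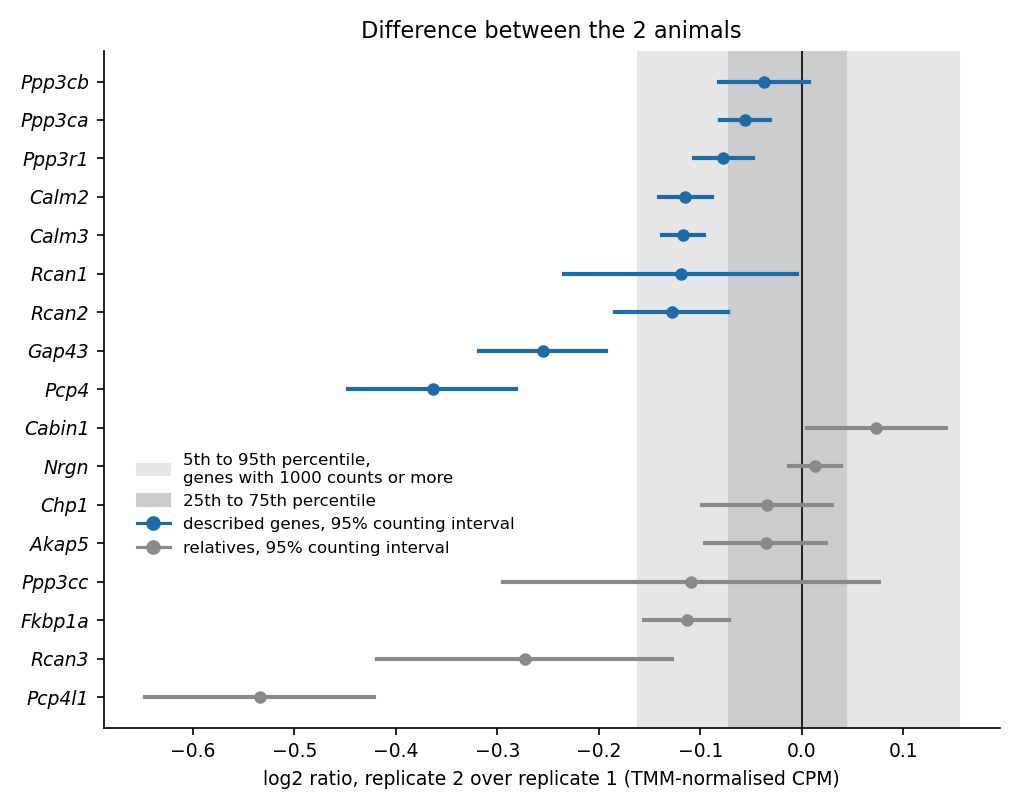
Log2 ratio of replicate 2 over replicate 1 for the 9 genes (blue) and for their relatives with a mean count of at least 100 (grey), with bars for the 95% counting interval, on TMM-scaled counts; shaded bands hold the central genes averaging 1000 counts or more, from -0.16 to 0.15 and from -0.07 to 0.04. Pcp4 at -0.36 and Gap43 at -0.26 lie outside the wider band and the other 7 genes lie inside it; with spike-in scaling 8 of the 9 lie above 0.

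The 2 calmodulin genes were the most abundant of the 9. Both encode the same calmodulin protein, and the opening 150 bases of the coding sequences of Calm2 and Calm3 are shown to mark where reads of these stretches can be told apart. Both coding sequences are 450 bases long, from GENCODE M21 on mm10, joined from exons on the minus strand within chr17:87434027-87446795 (Calm2-201) and chr7:16916948-16923843 (Calm3-201), and capitals mark the bases that differ.
Calm2-201: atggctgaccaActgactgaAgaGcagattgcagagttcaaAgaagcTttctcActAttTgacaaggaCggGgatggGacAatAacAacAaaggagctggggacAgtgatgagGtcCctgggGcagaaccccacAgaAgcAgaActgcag
Calm3-201: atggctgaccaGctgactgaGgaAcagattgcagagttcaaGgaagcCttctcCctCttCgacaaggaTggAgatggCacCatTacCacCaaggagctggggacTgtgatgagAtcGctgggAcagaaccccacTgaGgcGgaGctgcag
The stretches shown differ at 23 bases. Over all 450 bases the 2 sequences were identical at 372 (82.7%). Of the 78 that differed, 74 fell at the third position of a codon, 4 at the first and 0 at the second.

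Calm2 (ENSMUSG00000036438.13, chromosome 17, 87433412 to 87446935, minus strand) was at 1052 TPM in replicate 1 and 966 TPM in replicate 2, or 1009 ± 60.6 TPM (SD, n = 2). Calm3 (ENSMUSG00000019370.10, chromosome 7, 16915379 to 16924114, minus strand) was at 829.6 and 765 TPM, or 797 ± 45.6 TPM (SD, n = 2). Replicate 1 was the higher library for both, and the 2 genes kept the same ratio: Calm2 was 1.268 and 1.262 times Calm3, a mean of 1.265 ± 0.00374 (SD, n = 2). In the other quantification the ratio was 1.108 ± 0.0339, still above 1 in both libraries. By reads the order was the opposite, with 25088 and 22680 expected counts for Calm2 against 39539 and 35685 for Calm3, since Calm3 transcripts are longer (an effective length of 2189 against 1096 bases in replicate 1). The log2 ratio between animals was -0.11 for Calm2 (interval -0.14 to -0.09) and -0.12 for Calm3 (interval -0.14 to -0.10). These intervals overlap.

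The relatives Calm4, Calm5 and Calml3 were listed at 0 in both libraries, and Calml4 was at 0.02 and 0.50 TPM.

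For both calmodulin genes 1 transcript held nearly the whole level. Calm2-201 held 97.9% ± 0.493 (SD, n = 2) of the Calm2 level, and 98.7% in the other quantification. Calm3-201 held 99.7% ± 0.263 of the Calm3 level but 92.0% ± 3.21 in the other quantification, where the noncoding transcript Calm3-204 took 7.95% ± 3.21 against 0.29% in the first. Sequence shared with other genes bears on these values. Of the 31-base words in Calm2 transcripts, 18.1% also occur elsewhere, most often in the processed pseudogene Gm7308, which was at 1.47 and 2.95 TPM. Calm3 shares 4.99% of its words, all with the processed pseudogene Gm5881 (3.58 and 3.64 TPM) and none with Calm2.

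Pcp4 and Gap43 encode short proteins with an IQ motif that hold calmodulin, Pcp4 (PEP-19) in the cytosol of selected neurons and Gap43 at the membrane of growing and remodelling axons. Pcp4 (ENSMUSG00000090223.2, chromosome 16, 96467606 to 96525793, plus strand) was at 233 and 181 TPM, or 207 ± 37.2 TPM (SD, n = 2). Gap43 (ENSMUSG00000047261.9, chromosome 16, 42248442 to 42340651, minus strand) was at 159 and 133 TPM, or 146 ± 18.5 TPM (SD, n = 2). Replicate 1 was the higher library for both, and the 2 genes did not overlap. Gap43 stood at 0.683 and 0.737 times Pcp4, or 0.71 ± 0.0381, and at 0.477 ± 0.034 in the other quantification. By reads Gap43 was the larger, with 4577 and 3753 expected counts against 2748 and 2090 for Pcp4.

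These 2 genes differed most between the animals among the 9. The log2 ratio was -0.36 for Pcp4 (interval -0.45 to -0.28), a level 1.29-fold higher in replicate 1. Of the 5754 genes averaging 1000 counts or more, 0.33% had a lower ratio. For Gap43 it was -0.26 (interval -0.32 to -0.19), 1.19-fold, at the 1.18th percentile. With spike-in scaling Pcp4 was at -0.04 and Gap43 at 0.06, which is 0.36 and 0.25 under the median of all genes. Of their relatives, Pcp4l1, the close paralog of Pcp4, was at 49.2 and 33.9 TPM with a log2 ratio of -0.53 (interval -0.65 to -0.42). Nrgn, the postsynaptic IQ-motif protein neurogranin, was at 847 and 851 TPM and lay within counting error, with a log2 ratio of 0.01 (interval -0.01 to 0.04). Relative to all genes, Pcp4, Pcp4l1 and Gap43 were thus lower in replicate 2 and Nrgn was not.

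Marker genes of other tissue and cell types differed between the libraries alongside Pcp4 and Gap43. For comparison, 11.6% of all genes tested were lower and 11.0% higher on TMM-scaled counts, and 23.0% were lower among those averaging 1000 counts or more. With spike-in scaling the median of all genes was 0.32, and the shares of all genes called were not computed. All 10 striatal markers were lower in replicate 2, with a median log2 ratio of -1.01 (-0.70 with spike-in scaling) and sums of 366 and 208 TPM. Drd2, a dopamine receptor of striatal neurons, was at 6.45 and 1.53 TPM (log2 ratio -2.05), and Penk, which encodes an opioid precursor, was at 80.2 and 43.9 TPM (-0.89). Of the 10 deep layer markers 6 were lower and 0 higher, with a median of -0.21 that became 0.11 with spike-in scaling (1 lower and 5 higher), and sums of 214 and 193 TPM. The 7 oligodendrocyte markers were all lower, with a median of -0.27 that became 0.05 with spike-in scaling (0 lower and 2 higher), and sums of 867 and 704 TPM. Of the 6 blood and vessel markers 4 were lower and 0 higher, with a median of -0.19 that became 0.13 with spike-in scaling (1 lower and 2 higher). Of the 8 upper layer markers 0 were lower and 3 higher, with a median of 0.05, and of the 5 excitatory neuron markers 1 was lower and 1 higher, with a median of -0.0012 that became 0.32 with spike-in scaling. With spike-in scaling 0 genes of these 2 lists were lower. None of these marker genes was at 0 in either library. Their part in the Pcp4 and Gap43 values was not tested, and in bulk tissue fewer cells of a type and less RNA per cell cannot be told apart.

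The annotated forms of Pcp4 were assigned differently by the 2 quantifications. Pcp4-201, the form that starts at the most upstream site and codes over 189 bases, held 93.2% and 95.3% of the Pcp4 level, or 94.3% ± 1.51 (SD, n = 2), but 68.4% and 81.0% in the other quantification. The rest of the latter went to Pcp4-204, which starts at an inner site and has 378 annotated coding bases. It was at 10.1 and 3.59 TPM in the first quantification, with a posterior SD, the spread of the read assignment, of 47.7% and 80.4% of its value. In the other quantification it was at 162 and 78.0 TPM. Pcp4 shares 19.9% of its 31-base words with the overlapping gene model Igsf5 (ENSMUSG00000117081.1), which was listed at 0 in both libraries. Gap43-201, with 684 coding bases, held 99.6% ± 0.102 of the Gap43 level, and Gap43 transcripts shared 0 words with other genes.

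Ppp3ca and Ppp3cb encode the alpha and beta forms of the catalytic A subunit. Ppp3ca (ENSMUSG00000028161.17, chromosome 3, 136670124 to 136937727, plus strand) was at 402 and 392 TPM, or 397 ± 7.31 TPM (SD, n = 2). Ppp3cb (ENSMUSG00000021816.11, chromosome 14, 20499364 to 20546573, minus strand) was at 127 and 124 TPM, or 125 ± 2.23 TPM (SD, n = 2). Ppp3ca was the higher by 3.17 ± 0.00202-fold (SD, n = 2), and by 3.69 ± 0.023-fold in the other quantification, a gap far wider than the spread between libraries. The third catalytic gene, Ppp3cc, was at 12.2 and 11.4 TPM. Of the catalytic sum of 534 ± 10.1 TPM, Ppp3ca made up 74.4%, Ppp3cb 23.4% and Ppp3cc 2.21%. The other quantification gave 77.0%, 20.9% and 2.1%.

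On TMM-scaled counts Ppp3ca and Ppp3cb had the smallest differences of the 9 genes, while with spike-in scaling theirs were the largest, at 0.26 and 0.28. The log2 ratio was -0.06 for Ppp3ca (interval -0.08 to -0.03), at the 31.6th percentile of genes with 1000 counts or more. It was -0.04 for Ppp3cb (interval -0.08 to 0.0074), at the 40.7th percentile, and Ppp3cb is the one of the 9 whose interval held 0. In the other quantification the Ppp3cb value was -0.08 and beyond counting error. For Ppp3cc the interval, -0.29 to 0.08, also held 0.

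Both genes have a coding exon of 30 bases that some transcripts skip, which keeps the reading frame. The 2 exons are shown because both genes have forms with and without it. They come from GENCODE M21 on mm10, for Ppp3ca at chr3:136932011-136932040 on the plus strand and for Ppp3cb at chr14:20503247-20503276 on the minus strand, and capitals mark the bases that differ.
Ppp3ca exon: cTacTgttgaggctattgaggctgaTGaag
Ppp3cb exon: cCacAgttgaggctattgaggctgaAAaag
They are identical at 26 of 30 bases (86.7%). In Ppp3ca the form that holds the exon (Ppp3ca-201, 1566 coding bases) made up 55.4% and 56.9% of the protein-coding level, or 56.2% ± 1.07 (SD, n = 2), against Ppp3ca-202 (1536 coding bases) for the rest. In Ppp3cb the 2 forms that hold it (Ppp3cb-205 and Ppp3cb-202) made up 73.5% and 76.0%, or 74.8% ± 1.81. The shares of the 2 genes did not overlap. The other quantification gave 53.5% ± 1.55 for Ppp3ca and 67.8% ± 3.64 for Ppp3cb, and these did not overlap either. Ppp3ca-201 and Ppp3ca-202 also end at different sites, 136935779 and 136937727, so their shares rest on reads of the 3′ end as well as on the exon.

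Further transcripts took smaller parts. Ppp3cb-201, which skips the exon, held 20.6% ± 1.31 of the Ppp3cb level, Ppp3cb-205 held 60.3% ± 1.73 and Ppp3cb-202 held 10.2% ± 0.593. The noncoding transcript Ppp3ca-204 held 0.187% of the Ppp3ca level in the first quantification and 11.3% ± 1.45 in the other. Ppp3ca and Ppp3cb share 0.05% and 0.304% of their 31-base words with other genes. The antisense gene 1810062O18Rik overlaps Ppp3cb and was at 1.86 and 1.55 TPM.

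Ppp3r1 encodes a calcium-binding B subunit of calcineurin. Ppp3r1 (ENSMUSG00000033953.10, chromosome 11, 17159263 to 17200375, plus strand) was at 335 and 316 TPM, or 325 ± 13.1 TPM (SD, n = 2). The summed level of Ppp3ca and Ppp3cb was 1.58 and 1.63 times that of Ppp3r1, or 1.61 ± 0.0355, and 1.89 ± 0.0697 in the other quantification. Catalytic transcripts were therefore the more abundant in both libraries and both quantifications. The log2 ratio of Ppp3r1 between animals was -0.08 (interval -0.11 to -0.05), at the 22.8th percentile. Ppp3r2, the B subunit gene known for expression in testis, was at 0.22 and 0.34 TPM. Ppp3r1-201, with 513 coding bases, held 99.2% ± 0.071 of the Ppp3r1 level. Ppp3r1 shares 13.5% of its 31-base words with the overlapping gene Wdr92, which was at 3.23 and 2.95 TPM.

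Rcan1 and Rcan2 encode inhibitors that bind the catalytic subunit, and Rcan1 is itself a known target of calcineurin signalling. Rcan1 (ENSMUSG00000022951.16, chromosome 16, 92391953 to 92470867, minus strand) was at 27.2 and 25.2 TPM, or 26.2 ± 1.41 TPM (SD, n = 2). Rcan2 (ENSMUSG00000039601.16, chromosome 17, 43801351 to 44039516, plus strand) was at 92.9 and 80.2 TPM, or 86.6 ± 8.92 TPM (SD, n = 2). Rcan2 was the higher by 3.3 ± 0.163-fold (SD, n = 2), and by 3.59 ± 0.236-fold in the other quantification. The summed level of the 2 inhibitors was 0.216 ± 0.0158 times that of Ppp3ca and Ppp3cb together.

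The log2 ratio between animals was -0.13 for Rcan2 (interval -0.18 to -0.07) and -0.12 for Rcan1 (interval -0.23 to -0.0046). By TPM (pseudocount 1) the Rcan2 value was -0.21, with an effective length of 2767 bases in replicate 1 and 2922 in replicate 2. The Rcan1 interval, on 1303 and 1174 expected counts, only just left out 0, and with a count minimum of 100 in place of 10 it held 0. Rcan3, the third gene of the family, was at 15.4 and 13.6 TPM with a log2 ratio of -0.27 (interval -0.42 to -0.13). Among the other genes that inhibit or anchor calcineurin, Fkbp1a, which encodes the immunophilin FKBP12 through which the drug FK506 acts, was at 354 and 319 TPM (log2 ratio -0.11). Cabin1, a calcineurin-binding protein, was at 29.5 and 35.0 TPM (0.07 by counts, interval 0.0047 to 0.14), with an effective length of 5228 and 4625 bases. TPM is divided by this length and the log2 ratio is not, so the 2 measures differ there. Akap5, which tethers calcineurin at the synapse, was at 39.2 and 37.7 TPM and lay within counting error. Chp1 and Chp2, which encode proteins homologous to the B subunit, were at 88.6 and 77.0 TPM and at 1.46 and 2.17 TPM. By counts both also lay within it. Chp1 had an effective length of 2086 and 2339 bases. The Chp2 interval, -0.0002 to 1.18 on 43 and 63 expected counts, only just held 0.

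Each of the 2 Rcan genes starts at several sites, and forms differ in which coding exon comes first. In Rcan1 the upstream exon (chromosome 16, 92465833 to 92466078, 246 coding bases) belongs to Rcan1-202, with 756 coding bases in all, and the downstream exon (92399896 to 92399982, 87 coding bases) to Rcan1-201, with 597. In Rcan2 the upstream exon (chromosome 17, 43836273 to 43836497) has 225 coding bases and the downstream exon (43953451 to 43953537) has 87. The downstream exons are shown, from GENCODE M21 on mm10, because the use of this exon is where the 2 genes differed most, and capitals mark the bases that differ; Rcan1 is at chr16:92399896-92399982 on the minus strand and Rcan2 at chr17:43953451-43953537 on the plus strand.
Rcan1 downstream exon: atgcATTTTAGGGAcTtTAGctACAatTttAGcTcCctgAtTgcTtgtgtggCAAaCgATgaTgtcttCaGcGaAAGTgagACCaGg
Rcan2 downstream exon: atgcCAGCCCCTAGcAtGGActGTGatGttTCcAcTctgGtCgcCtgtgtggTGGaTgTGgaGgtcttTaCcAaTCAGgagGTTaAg
These were identical at 44 of 87 bases (50.6%).

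Rcan1 was expressed mainly from its upstream start. Rcan1-202 was at 22.3 and 21.3 TPM and held 82.2% and 85.6% of the protein-coding level, or 83.9% ± 2.44 (SD, n = 2). The downstream form was at 2.61 and 2.02 TPM, or 8.87% ± 1.04, with a posterior SD of 40.1% and 45.0% of its value. The other quantification gave nearly the whole level to the upstream form and a value near 0 to the downstream form, so the presence of the downstream form was not settled. Rcan1-203, from a start between the 2, held 7.19% ± 1.45 of the Rcan1 level in the first quantification and was also near 0 in the other. In Rcan2 the 2 kinds of form were near equal. Transcripts with the upstream exon (Rcan2-202, Rcan2-204 and Rcan2-206) held 54.2% and 51.8%, or 53.0% ± 1.7, and those with the downstream exon, led by Rcan2-201, held 47.0% ± 1.7. The other quantification gave 50.3% ± 0.195 and 49.7% ± 0.195. Single forms within these sums were less settled. Between quantifications Rcan2-204 went from 5.74% to 18.0% of the Rcan2 level and Rcan2-206 from 20.3% to 11.1%. Rcan2-203 held 9.18% and 1.56% in the 2 libraries of the first, with a posterior SD of 30.2% and 119% of its value. The downstream share was higher in Rcan2 than in Rcan1 in both libraries and both quantifications, with no overlap.

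**Figure D3:**
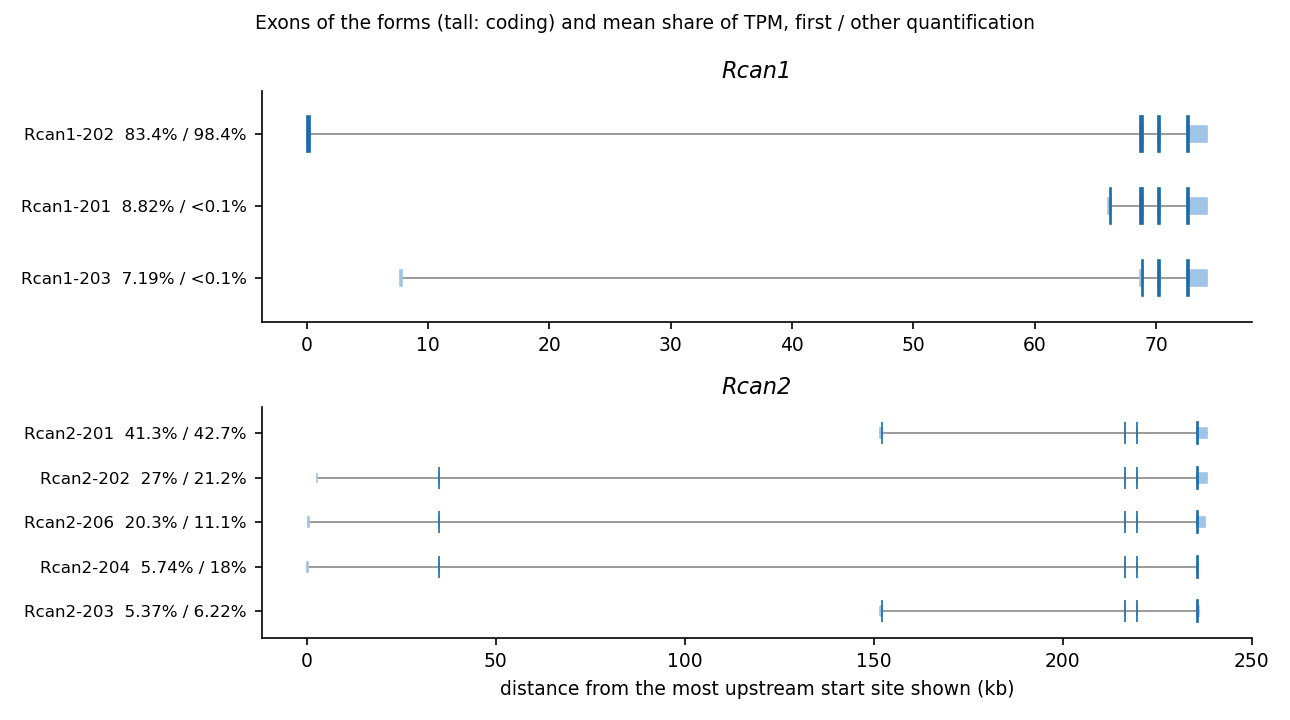
Exons of the Rcan1 and Rcan2 transcripts that held 5% or more of the gene's level, in kilobases from the most upstream start shown, with coding exons tall and the mean share of TPM in the first and the other quantification beside each name. The upstream form Rcan1-202 holds 83.4% and 98.4% of the Rcan1 level, while in Rcan2 the downstream form Rcan2-201 is the largest single form at 41.3% and 42.7%.

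The 250 bases upstream of each of the 2 Rcan1 starts are shown because the starts were used so unequally. They come from the RefSeq promoter table, build GRCm38.p6 (mm10), minus strand, at chr16:92466170-92466419 for the upstream and chr16:92400079-92400328 for the downstream start. Capitals mark GGAAA on either strand (GGAAA or TTTCC), the core that NFAT factors are known to bind.
Rcan1 upstream start: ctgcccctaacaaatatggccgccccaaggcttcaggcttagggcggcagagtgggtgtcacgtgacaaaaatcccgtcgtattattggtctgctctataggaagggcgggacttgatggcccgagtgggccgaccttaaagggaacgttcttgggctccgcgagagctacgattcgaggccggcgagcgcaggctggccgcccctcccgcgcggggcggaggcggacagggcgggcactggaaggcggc
Rcan1 downstream start: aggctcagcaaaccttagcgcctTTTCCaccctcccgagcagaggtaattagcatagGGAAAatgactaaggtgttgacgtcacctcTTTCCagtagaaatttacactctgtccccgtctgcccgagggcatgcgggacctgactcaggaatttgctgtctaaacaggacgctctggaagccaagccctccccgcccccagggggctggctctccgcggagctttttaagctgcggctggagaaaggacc
The upstream window held 0 such matches and the downstream window held 3, of which none overlap. Of 32851 promoter windows of the same length, 55.6% held at least 1 and 6.39% held 3 or more. The downstream window also held 1 TGACGTCA, a motif searched for after these sequences had been seen and present in 1.55% of windows. The upstream window had 64.8% GC bases and 24 CG pairs, and the downstream window 56.4% and 11. Of the 9 genes, 6 matched the promoter table, all but Calm2, Gap43 and Ppp3ca. The GGAAA matches numbered 1 for Calm3, 0 for Ppp3r1, 3 for Ppp3cb and 2 for Pcp4, and 2, 0 and 0 in the windows of the 3 Rcan2 starts. A match is a description of letters only.

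**Figure D4:**
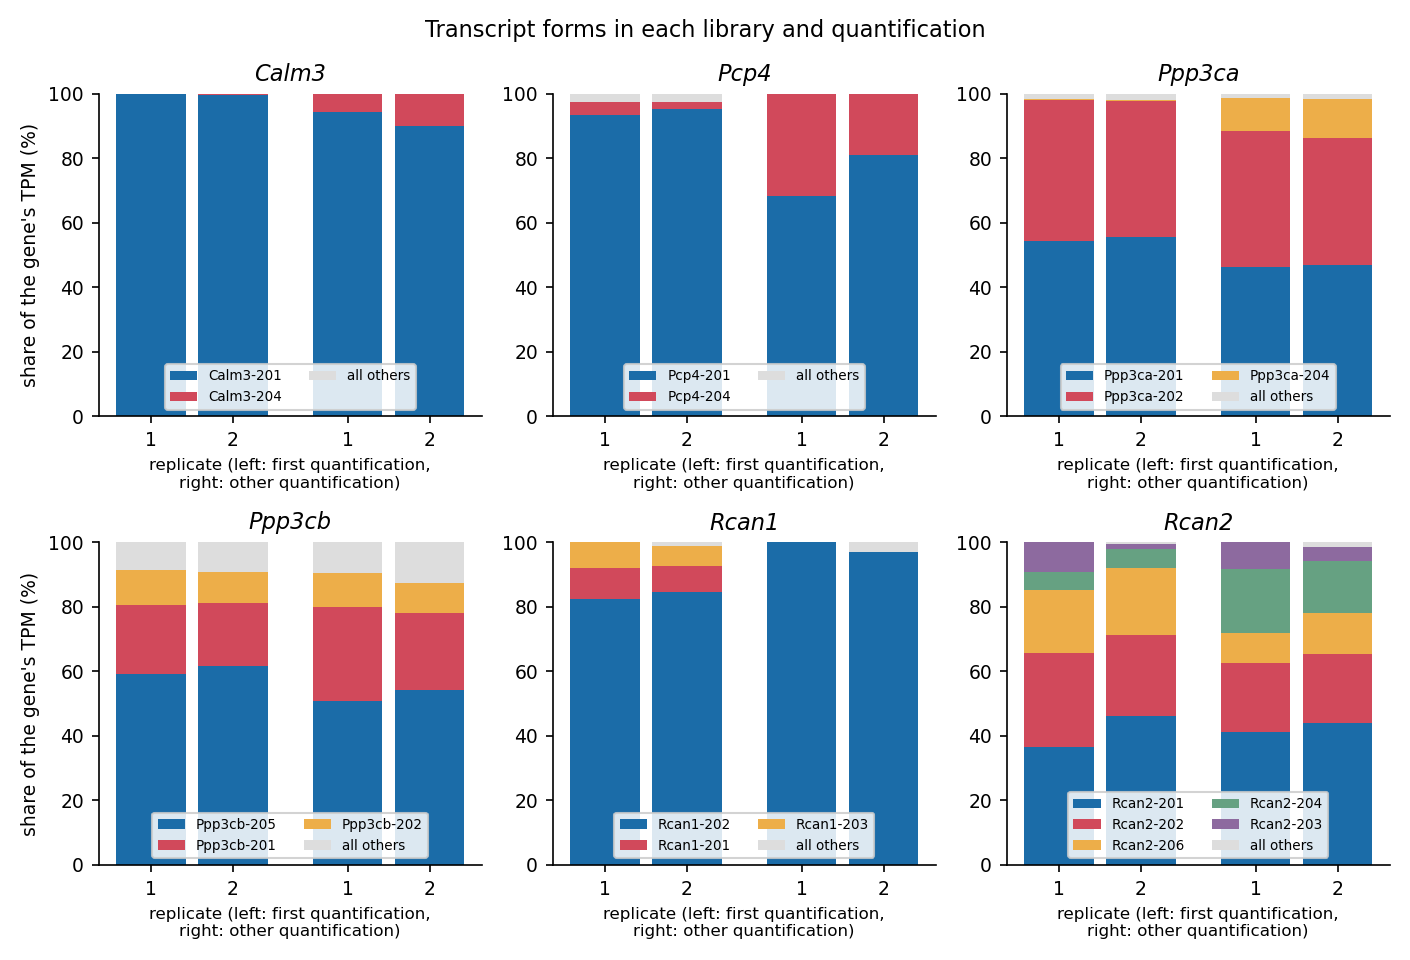
Share of the gene's TPM held by each transcript with 5% or more in either quantification, as stacked bars for replicate 1 and replicate 2, with the first quantification on the left and the other on the right of each panel. The 2 libraries differ most in Pcp4 of the other quantification (Pcp4-204 at 31.6% and 19.0%) and in Rcan2 of the first (Rcan2-201 at 36.6% and 46.1%). Between quantifications Pcp4-204 goes from 3.15% to 25.3%, Rcan2-204 from 5.74% to 18.0%, Ppp3ca-204 from 0.187% to 11.3%, and Rcan1-201 from 8.82% to near 0.

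Genes that act beside these 9 were read from 3 further lists. Of 14 calcineurin substrates and targets, 2 were lower and 3 higher in replicate 2, with a median log2 ratio of -0.0088. Among all genes tested 11.6% were lower and 11.0% higher, and 23.0% were lower among those averaging 1000 counts or more. A difference of the 14 from these shares was not tested. With spike-in scaling the median of the 14 became 0.31, with 0 lower and 10 higher, while the median of all genes was 0.32. The shares of all genes called with that scaling were not computed, so such counts have no background here. Dnm1, the endocytic GTPase dynamin 1, was the most abundant at 581 and 579 TPM (-0.01). The transcription factor genes Mef2c (285 and 286 TPM, 0.05) and Mef2d (95.3 and 98.6 TPM, 0.06) followed. Crtc2, a transcriptional coactivator that calcineurin frees to enter the nucleus, had the largest difference (14.9 and 19.2 TPM, 0.33, interval 0.15 to 0.51). Of 18 other calmodulin targets, 10 were lower and 3 higher, with a median of -0.08. The shares beside this were 11.6% lower and 11.0% higher among all genes tested, and 23.0% lower among those averaging 1000 counts or more. With spike-in scaling the median became 0.24, with 0 lower and 16 higher, again without a computed background. The plasma membrane calcium pumps Atp2b1 (330 and 328 TPM, -0.03) and Atp2b2 (310 and 322 TPM, 0.05) went opposite ways on TMM-scaled counts, and Basp1, a membrane protein of axon terminals, was at 320 and 289 TPM (-0.15). Pde1c, a calmodulin-dependent phosphodiesterase, was at 2.39 and 1.36 TPM (-0.38 by counts, a smaller difference than that in TPM).

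Of 17 genes of EF-hand calcium-binding proteins, a list of sensors that also holds Calb1 and Pvalb, 8 were lower and 1 higher, with a median of -0.07. Again 11.6% of all genes tested were lower and 11.0% higher, and 23.0% were lower among those averaging 1000 counts or more. With spike-in scaling the median of these 17 genes became 0.25, with 0 lower and 14 higher, while the median of all genes was 0.32. The shares of all genes called with that scaling were not computed. The sensors Vsnl1 (327 and 298 TPM, -0.13), Hpca (335 and 287 TPM, -0.18) and Hpcal4 (247 and 234 TPM, -0.03) were the most abundant, each well below Calm2 and Calm3. Among genes of this list averaging 100 counts or more, Hpcal1 had the largest difference (43.9 and 34.7 TPM, -0.34). Activity-regulated genes, listed because calcium entry drives them, included 8 of 10 that were higher in replicate 2 and 0 lower, with a median of 0.49 (0.81 with spike-in scaling). Arc was at 61.3 and 113 TPM (0.89), Nr4a1 at 43.0 and 68.5 TPM (0.72) and Egr1 at 82.8 and 94.8 TPM (0.20). Rcan1, which is also known to respond to calcium signalling, was at 27.2 and 25.2 TPM. Whether these values bear on the 9 genes was not tested.

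**Figure D5:**
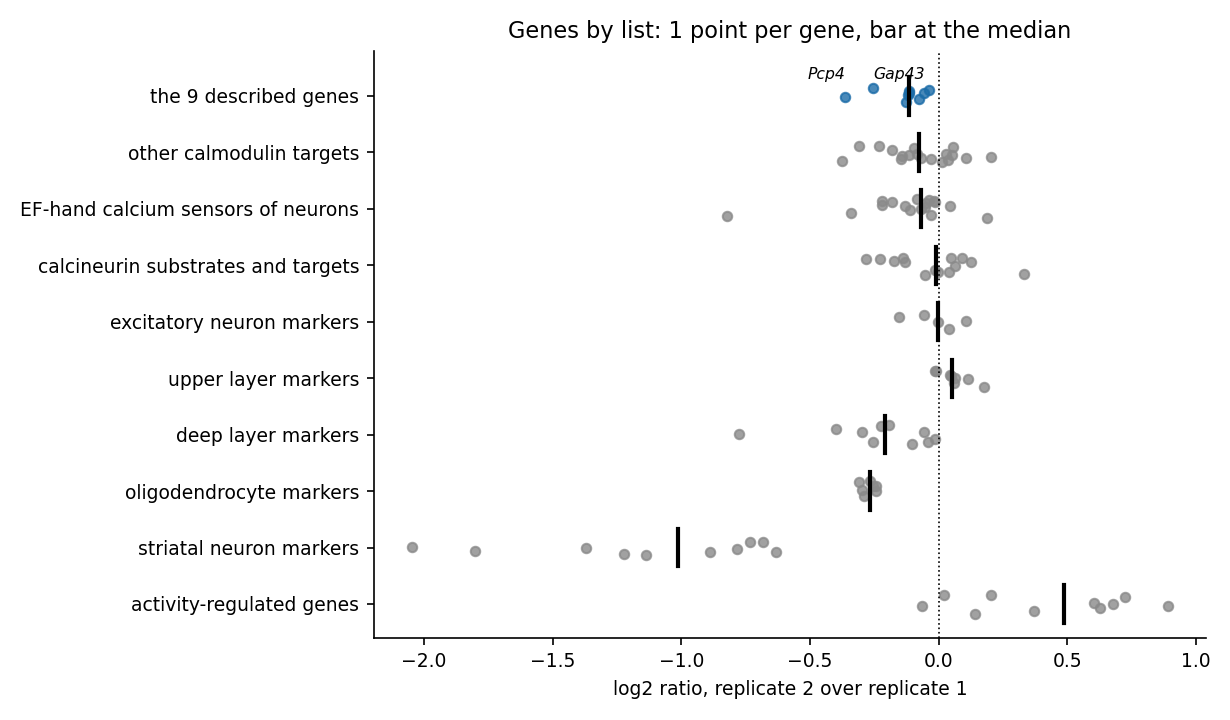
Log2 ratio of replicate 2 over replicate 1 on TMM-scaled counts, with 1 point per gene and a bar at each list's median. The 9 genes have a median of -0.12, the striatal markers -1.01 and the activity-regulated genes 0.49; with spike-in scaling the medians of the deep layer and oligodendrocyte markers and of the other calmodulin targets lie above 0.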

How the data were processed

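Per the file headers and a deposited description, each library has a gene table and a transcript table that rest on a transcriptome alignment (build mm10, GENCODE M21). Per the same description, a further transcript table, the other quantification, was computed without that alignment, from the reads of a single sequence file. The aligner and programs were left unnamed, as not given in the sources used here. The deposited tables give expected counts (estimates that need not be whole), TPM and FPKM, the deposited FPKM being scaled by length and depth, and were used as deposited. FPKM served only for ratios between genes. The deposited posterior SD of a transcript count is a spread of the read assignment. Of the rows, 55536 are genes and 96 are spike-ins, while 26248 carry no gene name. These last held 1.78e-05% and 2.48e-05% of the counts. They and the spike-ins stayed out of library sizes.

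Expected counts were rounded, genes averaging at least 10 counts were kept, and log2 ratios were taken from TMM-normalised CPM (edgeR 4.0.16 in R 4.3.3, prior count 2), computed here. A gene was called where its exact conditional binomial (Clopper-Pearson) 95% interval excluded 0. PCR reads are not independent molecules, so intervals cover counting error only, and no p-values were computed. Simulated data of 18490 genes were drawn with Poisson counting error alone, which is what the interval assumes. There the intervals held the true value for 95.7% of unchanged genes, 94% of those changed by 0.5 (log2) and 97% of those changed by 1. This checks the computation only, since such draws hold no spread between animals and no PCR duplicates. Levels of different genes were compared on TPM only, as mean ± SD over 2 libraries. The posterior SD of the 9 gene counts was at most 0.0383% of the count. Tables were handled in Python 3.11.15 with pandas 2.3.3. Sequences were read from GENCODE M21 transcripts and the RefSeq promoter table.

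The 9 genes and all lists were chosen with earlier results of these data known. Some listed genes are not reported here and were left out of their lists. Named are the 9 genes, any gene of lists of up to 8, and from longer lists the 3 highest by TPM and the 1 with the largest ratio among those with a mean count of at least 100. Of transcripts, those with at least 5% of a gene's level were named, and some smaller ones for context. The background of genes with 1000 counts or more, the ratio of the Rcan genes to the catalytic genes and the values relative to the median of all genes were added after seeing the data. Alternatives were scaling by DESeq2 1.42.0 size factors or by spike-ins, log2 TPM (pseudocount 1), 0.5 as prior count, a count minimum of 100 or none, the other quantification, FPKM, rescaling to protein-coding genes, and leaving out each library.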

Additional observations from a re-analysis of the deposited data

How the results depend on the processing

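Spike-in scaling reversed most differences between the animals, since it moved the median of all genes to 0.32. The log2 ratios became 0.20 for Calm2, 0.20 for Calm3, 0.064 for Gap43, 0.26 for Ppp3ca, 0.24 for Ppp3r1, 0.20 for Rcan1 and 0.19 for Rcan2, and 0 of the 9 genes were lower. Of the 18 lists, 16 had a median below 0, and 15 of these were above 0 with spike-in scaling. Among them the medians became 0.20 for the calmodulin genes, 0.0094 for the IQ-motif binders, 0.24 for other calmodulin targets, 0.20 for inhibitory neuron markers, 0.11 for deep layer markers, 0.051 for oligodendrocyte markers, 0.13 for blood and vessel markers, 0.26 for calcineurin subunits and 0.24 for calcineurin inhibitors and anchors. The cause of the shift in spike-in share was not tested. Under DESeq2 size factors, a prior count of 0.5 and no count minimum, 8 genes were lower, with a count minimum of 100 it was 7, and in the other quantification 9. The shares of all genes called were computed on TMM-scaled counts only, so these counts and that with spike-in scaling have no matching background.

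The level ratios moved beyond their SD in the other quantification, to 1.108 (Calm2 over Calm3), 3.687 (Ppp3ca over Ppp3cb), 1.887 (Ppp3ca plus Ppp3cb over Ppp3r1), 3.587 (Rcan2 over Rcan1) and 0.477 (Gap43 over Pcp4); the cause was not tested. Leaving out 1 library gave ranges of 1.262 to 1.268, 3.168 to 3.17, 1.581 to 1.632, 3.188 to 3.419 and 0.683 to 0.737 in the same order. Rescaling to protein-coding genes raised all 9 levels 2.05-fold. FPKM ratios were the same by construction. No paired analysis was possible because the data hold 1 group. Depth limits Rcan1 most, with 1174 to 1303 counts, and the intervals do not cover differences between animals.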

Other observations

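Inhibitory neuron genes, which belong in no comparison above, differed among themselves between the 2 libraries. Gad1 and Gad2, which encode the enzymes that make GABA, had log2 ratios of -0.14 and -0.23, and Slc32a1, the vesicular GABA transporter, had -0.29. Sst was at 203 and 191 TPM (-0.09), while Pvalb (40.9 and 42.9 TPM) and Vip (30.1 and 30.6 TPM) lay within counting error. With spike-in scaling the median of the 6 genes was 0.20, and 0.11 under the median of all genes.

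Among all genes tested, 11.6% were lower and 11.0% higher. Of the 6 astrocyte markers 3 were lower and 1 higher, with Slc1a2 at 746 and 770 TPM (0.07) and Gfap at 63.2 and 53.1 TPM (-0.25). Of the 6 microglial markers 1 was lower, C1qa at 26.1 and 21.3 TPM (-0.28). Of the 6 thalamic markers 2 were lower, Slc17a6 (18.6 and 13.0 TPM, -0.27 by counts) and Prkcd (5.70 and 4.64 TPM, -0.32). With spike-in scaling the medians of these 3 lists were 0.26, 0.24 and 0.27, and 0 of their genes were lower. The median of all genes was then 0.32, and the shares of all genes called were not computed.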
